A study of Rattus norvegicus with 16 samples.

Results

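The proteasome subunits measured here were the 40 genes whose probes carry a RefSeq target named Psma, Psmb, Psmc or Psmd with a number, or Psme1 to Psme4, without pseudogenes. They were 40 of 13903 gene symbols with a probe on the array, each with 1 probe. A further gene, Psmc3ip, matched the letters of this rule but is named for a protein that interacts with PSMC3, so it was set apart and 41 genes matched in all. Psmb11, Psmd11 and Psme4, and the paralogue entries Psmb3l1, Psmb3l2 and Psmb6l1, had no matched probe and were not analysed here. Whether the Psmb3 and Psmb6 probes also bind RNA of those paralogues was not tested. The RNA came from hippocampi of male Sprague-Dawley rats of 250 g, with 4 arrays in each of 4 groups. Rats exposed to chronic mild stress (CMS) for 8 weeks were labelled depression-susceptible, anxiety-susceptible or insusceptible, and control rats had no CMS. The age of the rats, the way in which stressed rats were assigned to the 3 labels, and whether 4 arrays stand for 4 animals are not given in the sources used here. The comparisons ask which subunit transcripts differ after CMS and whether they differ by behavioural outcome.

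The proteasome degrades proteins that carry ubiquitin chains. Its core particle is a barrel of outer alpha rings, which gate the channel, and inner beta rings, which hold the protease sites. A regulatory particle of ATPases and non-ATPase subunits binds the chain, removes it and threads the protein into the core. Interferon-induced beta subunits replace the constitutive ones in the immunoproteasome, which is known for making peptides for antigen presentation, and Psme activators open the core without ubiquitin. In hippocampal neurons, protein degradation at synapses is a known part of plasticity and memory.

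Levels are log2 processed signals minus the 75th percentile of their array, so 0 is the 75th percentile and a step of 1 is a doubling. Depression-susceptible and control arrays shared slides 1 and 2, with 2 of each on either slide, and these were read on scan day 1. The anxiety-susceptible arrays filled slide 3 and the insusceptible arrays filled slide 4, read on scan day 2. Within a group, the squared difference between same-slide arrays was 0.477 to 0.921 times that expected from repeated spots, against 5.441 to 7.795 times between slides (1487 probes with 3 spots). Same-slide arrays of a group were therefore averaged into 1 sample, which left 2 depression-susceptible, 1 anxiety-susceptible, 1 insusceptible and 2 control samples. Standard errors (SE) and p-values measure the spread between slides, which may be technical, and the lone samples are assumed to vary like the others. For anxiety-susceptible and insusceptible against control, the group, the slide and the scan day cannot be told apart. On the shared slides depression-susceptible RNA was always at positions 3 and 4, and control RNA at 1 and 2, so position and group cannot be told apart there. The 75th percentile signal was 1083.2 to 1258.5 on day 2 and 2862.9 to 3348.4 on day 1, with 62.2% to 74.0% of probes well above background on an array and 0 saturated spots.

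Most proteasome subunit transcripts had lower levels in each stressed group than in control. Over the 40 subunits, the median level was 3.65 and 3.66 in the depression-susceptible samples of slides 1 and 2, 3.22 in the anxiety-susceptible sample and 3.19 in the insusceptible sample, against 4.08 and 4.01 in the control samples of slides 1 and 2. The stressed samples were all lower than both control samples, and the 2 control samples differed by a median of 0.09 over the subunits. All 40 subunits passed the filter on dim probes. After quantile normalization, which gives every array the same distribution of levels, these medians were 2.91 and 3.05, 2.76, 2.73, and 3.03 and 3.13 for the same groups, and the depression-susceptible and control samples overlapped. In bulk tissue, fewer cells of a type and less RNA per cell cannot be told apart.

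**Figure D1:**
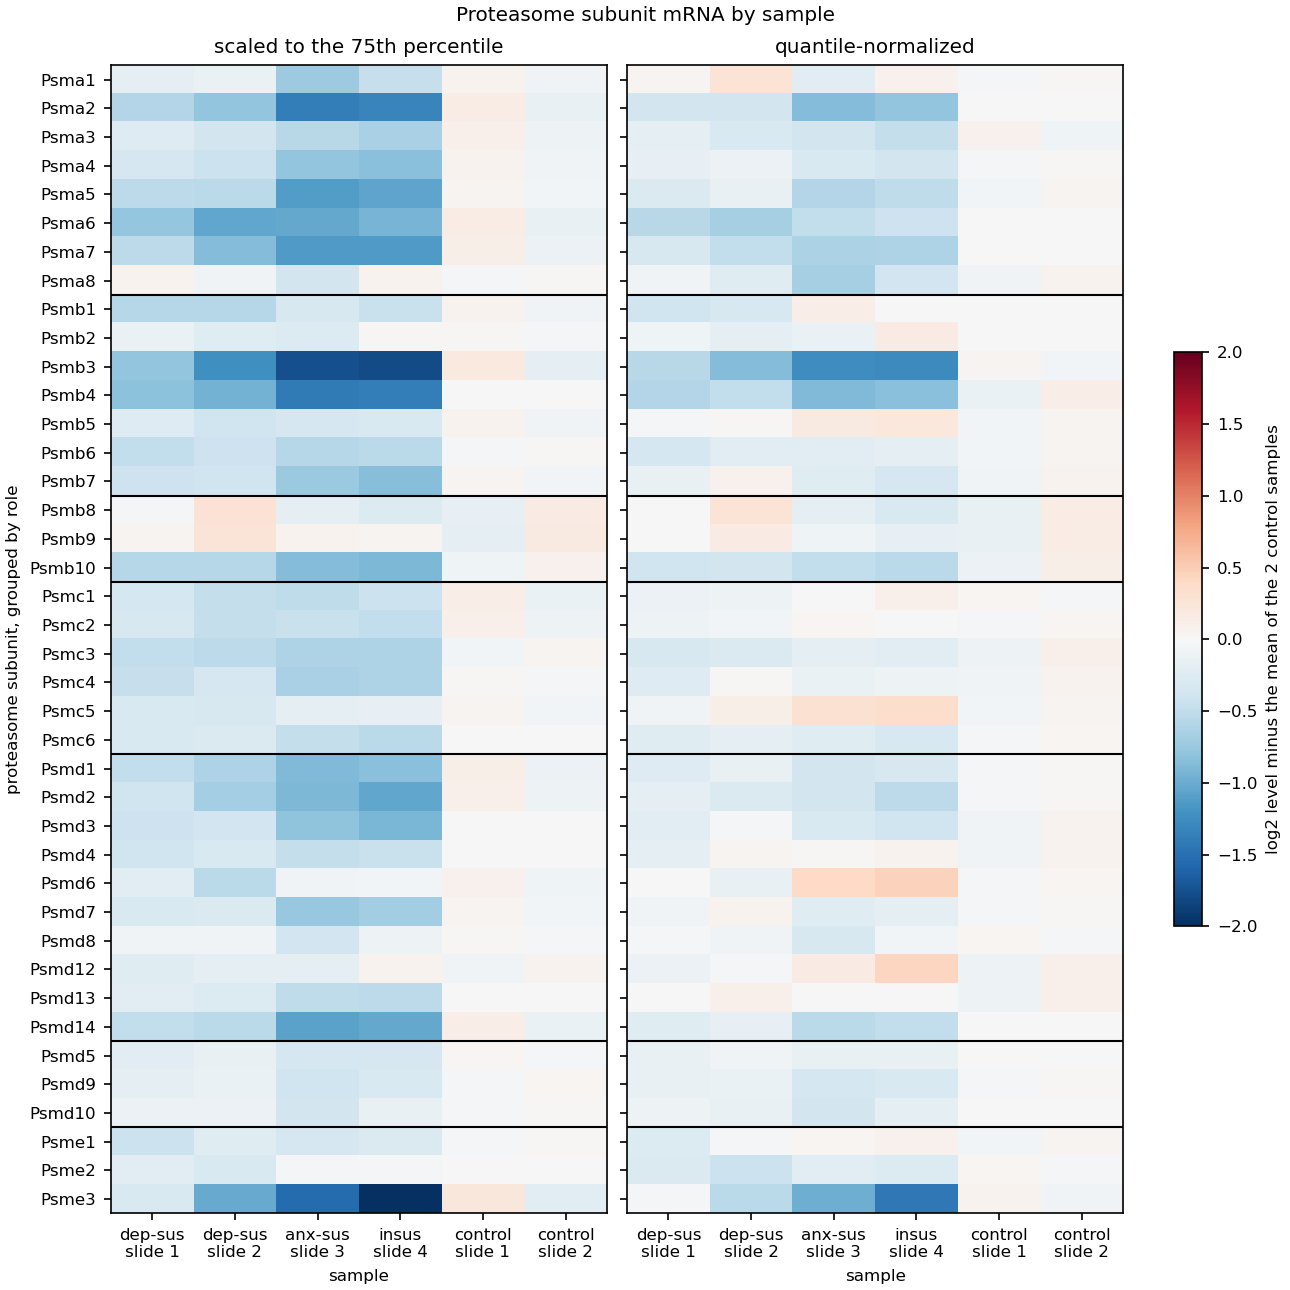
Each row is 1 of the 40 subunits, grouped by role from the alpha ring at the top to the activators at the bottom, and each column is 1 of the 6 samples (dep-sus, depression-susceptible; anx-sus, anxiety-susceptible; insus, insusceptible). Colour gives the log2 level minus the mean of the 2 control samples, with blue lower and red higher. Blue fills most of the stressed columns under 75th percentile scaling on the left and is paler after quantile normalization on the right, where Psmb3, Psmb4 and Psme3 remain the darkest rows of the anxiety-susceptible and insusceptible columns.

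In depression-susceptible against control rats, 7 of 40 subunits fell and 0 rose at an adjusted p under 0.05 in limma, where 2.92% of the 17713 probes tested fell and 6.84% rose. At an unadjusted p under 0.05 there were 28 subunits. The share of all probes at this unadjusted threshold is not given here or for the later counts, so they are not set against the array. The median log2 difference of the subunits was -0.39, beside -0.03 over all probes tested and -0.14 over the 7203 probes with a mean level above 0, among which 34 subunits lie. The sample medians of the subunits, 3.19 to 4.08, lie well above that cut. The median difference of probes at such levels is not given here or for the other groups. Within slide 1 the median was -0.41 and within slide 2 it was -0.33, and 37 subunits were lower on both slides, as were 46.1% of all probes. In 37 subunits both depression-susceptible samples lay below both control samples, which held for 33.2% of all probes. With slide as a block 30 subunits fell, where 20.1% of probes did. After quantile normalization 2 subunits, Psma2 and Psma6, fell, where 3.66% of probes did and 6.67% rose. The median was -0.14, and 1.5% of the probes above 0 fell. With any 1 of the 4 samples of slides 1 and 2 left out, which left 1 residual degree of freedom, no call of a subunit stood. Few probes of any kind were called lower in these fits, so this does not set the subunits apart. The subunit median then ranged from -0.42 to -0.31. The count was 3 without control replicate 3, 4 without control replicate 2 and 4 without depression-susceptible replicate 2. Without control replicate 3, Psmb10 had no control value on slide 2 and was not tested in any comparison. Of the 7 subunits, Psmb4 alone stayed under the threshold with each single array left out in turn; each of the 8 arrays of slides 1 and 2 took at least 1 of the other subunits past it, to adjusted p-values of 0.0501 to 0.127.

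In anxiety-susceptible against control rats, 24 of 40 subunits fell and 0 rose, where 18.6% of all probes fell and 12.5% rose. Of the probes with a mean level above 0, 26.7% fell. The median difference was -0.53, beside -0.09 over all probes and -0.28 over the probes above 0. The anxiety-susceptible sample lay below both controls in 38 subunits and in 50.8% of all probes. After quantile normalization 10 subunits fell, where 18.2% of probes fell and 12.7% rose, and the median was -0.25. Of these 10, 7 were among the 24, and the others were Psma8, Psmd9 and Psmd10. The sign of 11 of the 40 differences turned, among them the called Psmd4 and Psmd13. Without a control sample the count was 5 (slide 1) or 7 (slide 2), where 3.15% and 4.85% of probes fell, and it was 8 without either depression-susceptible sample, where 5.02% fell. The calls of Psma3, Psmb6, Psmd8 and Psme3 were lost without at least 1 single array, at adjusted p-values of 0.0504 to 0.372.

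In insusceptible against control rats, 23 of 40 subunits fell and 0 rose, where 15.3% of all probes fell and 15.1% rose. Of the probes above 0, 23.8% fell. The median difference was -0.53, beside -0.02 over all probes and -0.25 over the probes above 0. The insusceptible sample lay below both controls in 35 subunits, as in 46.0% of all probes. After quantile normalization 11 subunits fell, where 15.9% of probes and 11.9% of those above 0 did, 1 subunit rose, where 13.1% of probes did, and the median was -0.24. Without the control sample of slide 1 the count was 6 (2.91% of probes), without that of slide 2 it was 12 (5.35%), and it was 9 without either depression-susceptible sample (4.39%). The calls of Psmb1, Psmb6 and Psmd4 were lost without at least 1 single array, at adjusted p-values of 0.0505 to 0.0703. Counts rose with slide as a block, with slide as a random block and with the 16 arrays taken as independent. The slide block was a term for slide 2 alone, so it does not adjust for slides 3 and 4. The fit of 16 arrays ignores the slides and treats same-slide arrays, which differed by no more than repeated spots, as separate samples. With slide as a block 33 subunits fell in anxiety-susceptible rats (35.1% of probes) and 29 in insusceptible rats (31.9%). With the 16 arrays taken as independent, 36, 35 and 33 subunits fell in depression-susceptible, anxiety-susceptible and insusceptible rats, where 28.6%, 43.0% and 39.0% of probes fell and 21.3%, 29.0% and 34.0% rose. With slide as a random block, chosen after seeing the data, 36, 34 and 30 fell, where 33.2%, 35.7% and 32.4% of probes did. With normexp background correction no probe was called in any of the 3 comparisons (smallest adjusted p = 0.105, 0.919 and 0.493), and the subunit medians were -0.26, -0.43 and -0.52. All 3 comparisons use the same 2 control samples, so their values are given side by side and not as separate support.

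**Figure D2:**
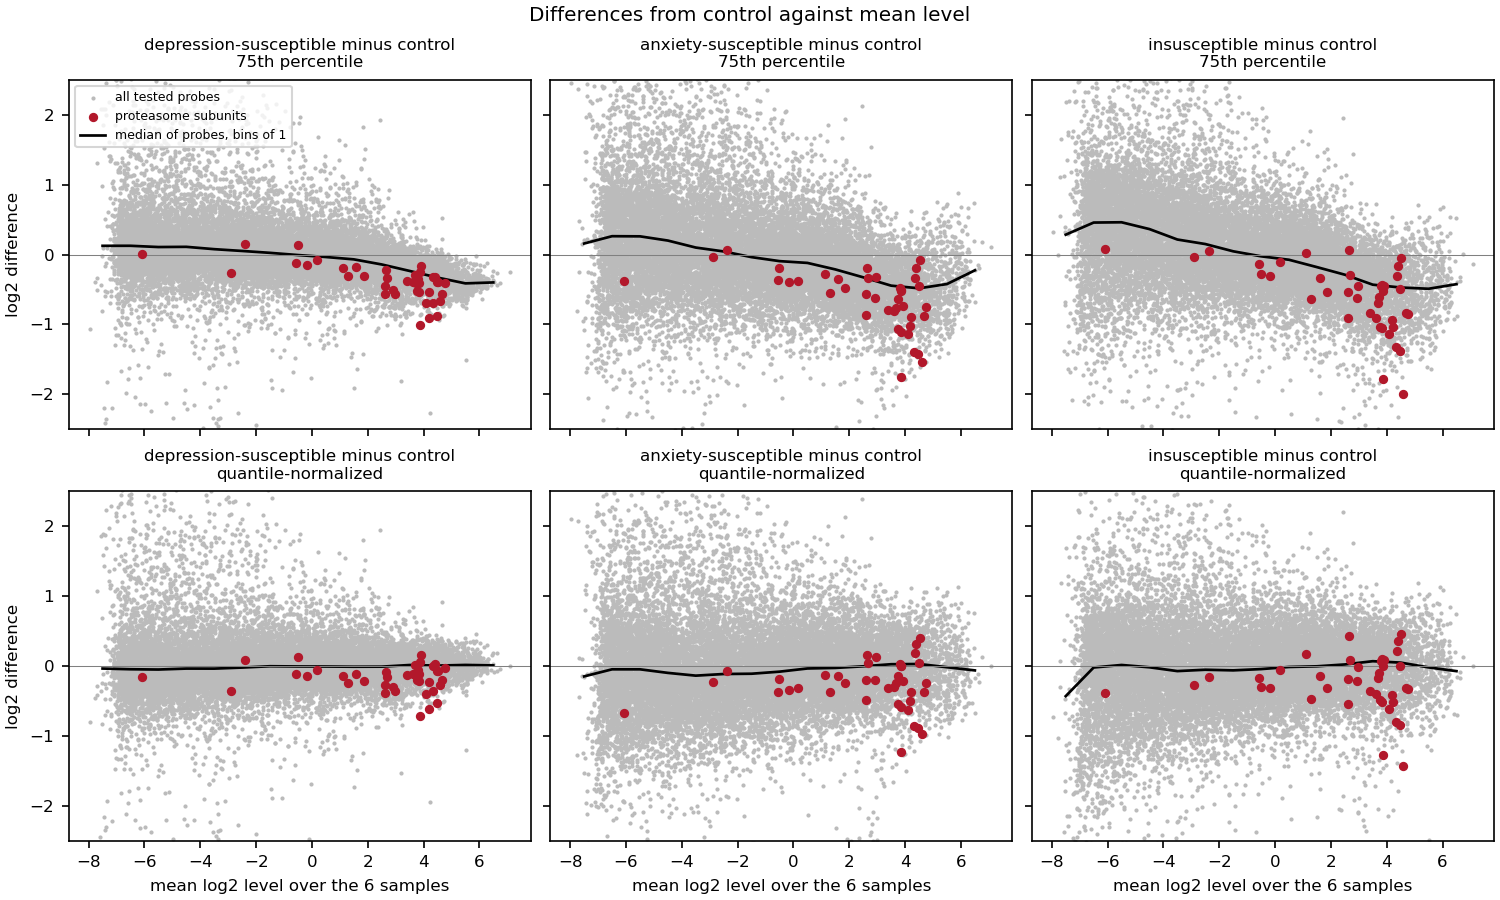
Each panel plots the log2 difference from control against the mean log2 level over the 6 samples, for all tested probes (grey) and the 40 subunits (red). The upper row has 75th percentile scaling, the lower row quantile normalization, and the black line is the median of probes in bins of 1. Probes beyond 2.5 in either direction are not drawn. Brighter probes have lower differences in the upper row, where the line falls below 0 at the right, and not in the lower row; 34 of the 40 red points lie above a level of 0.

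In the alpha ring, 2 of 8 members fell in depression-susceptible rats, 7 in anxiety-susceptible rats and 6 in insusceptible rats, with median differences of -0.46, -0.91 and -0.88. Over the array, 2.92%, 18.6% and 15.3% of probes fell in these groups. Among probes above 0 the shares were 2.64%, 26.7% and 23.8%. These shares also stand beside the counts of the other roles below, and no role was tested as a set. Psma6, an alpha ring subunit, had levels of 4.03 and 3.78 in the depression-susceptible samples, 3.79 in the anxiety-susceptible sample and 3.88 in the insusceptible sample, against 4.96 and 4.66 in the control samples. The stressed samples were all well below both controls and close to each other. Psma6 fell by 0.90 (SE 0.16, adjusted p = 0.0482), 1.02 (SE 0.19, adjusted p = 0.0306) and 0.93 (SE 0.19, adjusted p = 0.0369) on the log2 scale in these 3 groups, and after quantile normalization the differences were -0.61, -0.50 and -0.41, with adjusted p-values of 0.0217, 0.0274 and 0.0415. Among the depression-susceptible calls, that of Psma6 alone stood under both scalings. Under 75th percentile scaling it was lost without control replicate 2 or 3, or without depression-susceptible replicate 2 or 3. The adjusted p-values in these limma fits were 0.0553 to 0.0565. Psma2 had levels of 4.42 and 4.22 in the depression-susceptible samples, 3.63 in the anxiety-susceptible sample and 3.69 in the insusceptible sample, against 5.16 and 4.87 in the control samples. Here the depression-susceptible samples lay between the other groups. Psma2 fell by 1.39 in anxiety-susceptible rats (SE 0.18, adjusted p = 0.0165) and by 1.32 in insusceptible rats (SE 0.18, adjusted p = 0.0178), and its difference in depression-susceptible rats was -0.69 (adjusted p = 0.0661). After quantile normalization Psma2 was called lower in all 3 stressed groups. Psma5 and Psma7, other members of the ring, fell by 1.11 and 1.14 in anxiety-susceptible rats and by 1.05 and 1.14 in insusceptible rats, and these calls stood after quantile normalization. Among the calls of Psma1, Psma3 and Psma4, that of Psma4 in insusceptible rats alone stood under both scalings. Psma1, Psma3 and Psma4 had differences of -0.73, -0.55 and -0.80 in anxiety-susceptible rats and of -0.45, -0.64 and -0.84 in insusceptible rats, of which that of Psma1 in insusceptible rats was not called (adjusted p = 0.0505).

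Psma8, which takes the place of an alpha subunit in the proteasome of the testis, differed from the rest of the ring. Its probe was well above background on the 4 depression-susceptible and the 4 control arrays and on none of the other 8. The depression-susceptible samples read -5.96 and -6.10, the anxiety-susceptible sample -6.41 and the insusceptible sample -5.96, against -6.06 and -6.01 in the control samples. The anxiety-susceptible sample was the lowest and the other groups overlapped. The anxiety-susceptible mean was -6.41 against -6.03 in control, a difference that was not called. Single arrays overlapped, with anxiety-susceptible replicate 3 at -6.18 and control replicate 1 at -6.30. The probe passed the filter through the depression-susceptible and control arrays alone, so no fold is given for the anxiety-susceptible or insusceptible sample. The difference between depression-susceptible and control was 0.00 (adjusted p = 0.987). After quantile normalization the adjusted p of Psma8 in anxiety-susceptible rats was 0.0277, and there too the dim probe gives no more than a bound.

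In the beta ring, 3 of 7 members fell in depression-susceptible rats, 4 in anxiety-susceptible rats and 5 in insusceptible rats, with median differences of -0.46, -0.57 and -0.54. Psmb3 and Psmb4, which carry no protease site and build the ring, were among the 3 lowest differences in every stressed group. The levels of Psmb3 were 4.0 and 3.56 in the depression-susceptible samples, 3.04 in the anxiety-susceptible sample and 3.0 in the insusceptible sample, against 4.97 and 4.60 in the control samples. The groups did not overlap, and the samples of slide 2 lay below those of slide 1 in both groups. Psmb3 fell by 1.75 in anxiety-susceptible rats (SE 0.26, adjusted p = 0.0215) and by 1.78 in insusceptible rats (SE 0.26, adjusted p = 0.0216). Its difference of -1.01 in depression-susceptible rats was not called (SE 0.22, adjusted p = 0.0713). Psmb4 had levels of 4.41 and 4.29 in the depression-susceptible samples, 3.81 in the anxiety-susceptible sample and 3.85 in the insusceptible sample, against 5.24 and 5.22 in the control samples. The 2 controls were almost equal and every stressed sample was lower. Psmb4 fell by 0.88 (SE 0.08, adjusted p = 0.0135), 1.42 (SE 0.10, adjusted p = 0.00802) and 1.38 (SE 0.10, adjusted p = 0.00844) in depression-susceptible, anxiety-susceptible and insusceptible rats. After quantile normalization the 3 differences were -0.53, -0.88 and -0.84, and the first was no longer called (adjusted p = 0.0719). Psmb1, another subunit with no protease site, fell by 0.57 in depression-susceptible rats (adjusted p = 0.0356) and by 0.45 in insusceptible rats (adjusted p = 0.0455), and its difference in anxiety-susceptible rats was -0.32 (adjusted p = 0.0876). After quantile normalization neither call of Psmb1 stood, and its difference in anxiety-susceptible rats changed sign. For Psmb2, which also has no site, the differences under 75th percentile scaling were -0.19, -0.28 and 0.02 and none was called.

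The promoters of Psmb3 and Psmb4 are printed because these genes had the lowest differences of the core in anxiety-susceptible and insusceptible rats. Each window runs from 250 bases before to 50 bases after the RefSeq gene start on GRCr8, at chr10:83193537-83193836 (plus strand) for Psmb3 and chr2:185134512-185134811 (minus strand) for Psmb4. Capitals mark matches to the interferon-response motif searched, GAAA followed by any 2 bases and another GAAA, on either strand, of which Psmb3 has 1 and Psmb4 none; a match to these letters is not a site of binding.
Psmb3: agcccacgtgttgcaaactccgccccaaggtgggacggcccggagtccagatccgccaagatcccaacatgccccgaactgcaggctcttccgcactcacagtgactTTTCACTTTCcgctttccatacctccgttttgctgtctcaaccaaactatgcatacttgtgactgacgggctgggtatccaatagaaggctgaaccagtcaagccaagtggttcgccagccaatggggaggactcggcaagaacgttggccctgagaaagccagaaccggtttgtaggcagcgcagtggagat
Psmb4: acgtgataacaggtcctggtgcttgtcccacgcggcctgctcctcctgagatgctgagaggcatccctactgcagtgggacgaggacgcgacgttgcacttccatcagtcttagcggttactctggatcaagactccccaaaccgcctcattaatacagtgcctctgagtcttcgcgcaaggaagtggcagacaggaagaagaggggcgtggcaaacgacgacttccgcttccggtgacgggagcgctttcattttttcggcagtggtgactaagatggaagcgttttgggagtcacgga

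The catalytic subunits come in pairs, and the immune member of each pair takes the ring position of its constitutive partner. At the chymotrypsin-like position, constitutive Psmb5 had levels of 4.32 and 4.17 in the depression-susceptible samples, 4.24 in the anxiety-susceptible sample and 4.27 in the insusceptible sample, against 4.64 and 4.50 in the control samples. All stressed samples were below both controls. The differences of -0.33, -0.33 and -0.30 were not called (adjusted p from 0.116 to 0.138), and after quantile normalization they were -0.00, 0.18 and 0.21. Immune Psmb8 (LMP7) read -0.51 and -0.19 in the depression-susceptible samples, -0.67 in the anxiety-susceptible sample and -0.75 in the insusceptible sample, against -0.64 and -0.32 in the control samples. The depression-susceptible and control samples overlapped, with slide 2 the higher in both groups, and the other stressed samples lay below both controls. Psmb8 differences of 0.13, -0.20 and -0.28 were not called (adjusted p from 0.369 to 0.659).

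At the caspase-like position, constitutive Psmb6 had levels of 2.45 and 2.54 in the depression-susceptible samples, 2.38 in the anxiety-susceptible sample and 2.41 in the insusceptible sample, against 2.93 and 2.97 in the control samples. The stressed and control samples were clearly apart. Psmb6 fell by 0.46 (SE 0.08, adjusted p = 0.0482), 0.57 (SE 0.10, adjusted p = 0.0258) and 0.54 (SE 0.10, adjusted p = 0.0293) in depression-susceptible, anxiety-susceptible and insusceptible rats, and none of the 3 calls stood after quantile normalization (-0.28, -0.20 and -0.18). Without depression-susceptible replicate 2 the first of these was -0.38 (adjusted p = 0.127). Immune Psmb9 (LMP2) read -2.40 and -2.19 in the depression-susceptible samples, -2.38 in the anxiety-susceptible sample and -2.40 in the insusceptible sample, against -2.63 and -2.27 in the control samples. Its groups overlapped, and the differences of 0.16, 0.07 and 0.05 were not called (adjusted p from 0.569 to 0.858).

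At the trypsin-like position, constitutive Psmb7 had levels of 4.75 and 4.76 in the depression-susceptible samples, 4.42 in the anxiety-susceptible sample and 4.31 in the insusceptible sample, against 5.22 and 5.10 in the control samples. Again no stressed sample reached a control sample. Psmb7 fell by 0.75 in anxiety-susceptible rats (SE 0.10, adjusted p = 0.0187) and by 0.85 in insusceptible rats (SE 0.10, adjusted p = 0.016), with -0.40 in depression-susceptible rats (adjusted p = 0.0668), and no call stood after quantile normalization. Immune Psmb10 (MECL-1) read 2.53 and 2.51 in the depression-susceptible samples, 2.23 in the anxiety-susceptible sample and 2.19 in the insusceptible sample, against 3.01 and 3.17 in the control samples. This immune subunit was lower in every stressed sample, unlike Psmb8 and Psmb9. Its control sample of slide 2 rests on 1 array, because the spot of the other was marked as an outlier. Psmb10 fell by 0.57 (SE 0.09, adjusted p = 0.0405), 0.86 (SE 0.11, adjusted p = 0.0171) and 0.90 (SE 0.11, adjusted p = 0.0164) in depression-susceptible, anxiety-susceptible and insusceptible rats. After quantile normalization the differences were -0.38, -0.48 and -0.54 and the last alone was called (adjusted p = 0.0458). As a group, 1 of 3 immune subunits fell in each stressed group and the median differences were 0.13, -0.20 and -0.28.

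**Figure D3:**
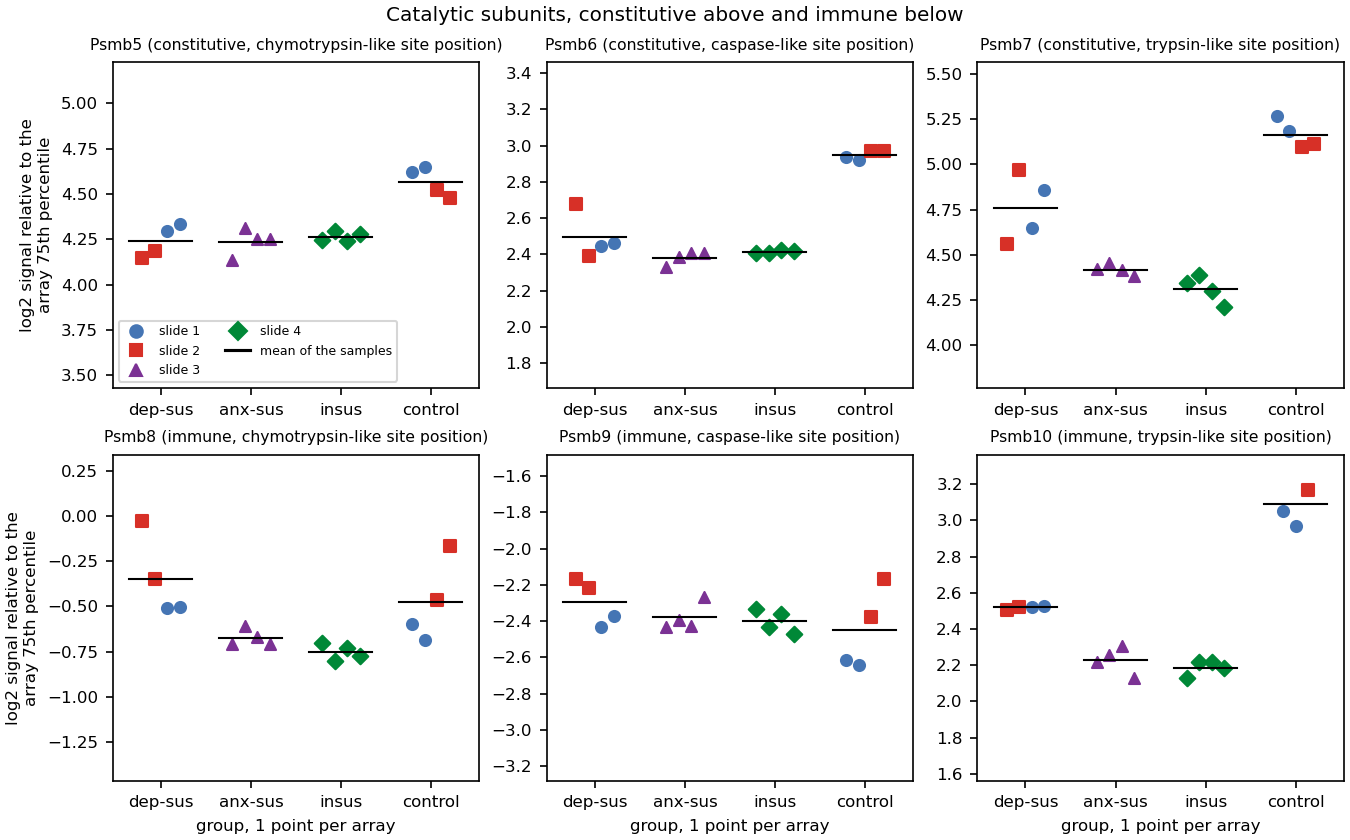
Points are single arrays, coloured by slide, with the log2 level relative to the array 75th percentile on the vertical axis and the groups along the horizontal axis. The upper row has the constitutive catalytic subunits and the lower row the immune subunit of the same ring position, and bars are the mean of the samples of a group. The stressed arrays of Psmb5, Psmb6, Psmb7 and Psmb10 lie below all control arrays, while for Psmb9 and for the depression-susceptible and anxiety-susceptible arrays of Psmb8 stressed and control arrays overlap; the insusceptible arrays of Psmb8 lie below all control arrays.

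The promoters of the 3 immune catalytic subunits and of Psme2 are shown because interferon is the known inducer of these genes, and because Psmb10 was called in every stressed group and Psmb8 and Psmb9 in none. The windows, of the same length and build, lie at chr20:4656982-4657281 (minus strand) for Psmb8, chr20:4668750-4669049 (plus strand) for Psmb9, chr19:50743243-50743542 (minus strand) for Psmb10 and chr15:33052702-33053001 (minus strand) for Psme2. Capitals again mark the interferon-response motif on either strand.
Psmb8: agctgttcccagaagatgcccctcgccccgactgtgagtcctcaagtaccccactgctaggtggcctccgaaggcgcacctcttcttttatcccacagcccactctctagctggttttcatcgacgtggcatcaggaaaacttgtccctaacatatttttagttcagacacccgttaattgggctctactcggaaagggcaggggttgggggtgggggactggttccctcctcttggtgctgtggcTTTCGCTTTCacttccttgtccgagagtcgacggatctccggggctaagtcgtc
Psmb9: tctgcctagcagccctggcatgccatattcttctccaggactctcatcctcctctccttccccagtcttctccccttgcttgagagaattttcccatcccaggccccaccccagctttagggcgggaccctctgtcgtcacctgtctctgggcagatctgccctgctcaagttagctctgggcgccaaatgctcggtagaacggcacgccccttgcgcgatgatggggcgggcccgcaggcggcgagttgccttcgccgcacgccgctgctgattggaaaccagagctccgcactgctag
Psmb10: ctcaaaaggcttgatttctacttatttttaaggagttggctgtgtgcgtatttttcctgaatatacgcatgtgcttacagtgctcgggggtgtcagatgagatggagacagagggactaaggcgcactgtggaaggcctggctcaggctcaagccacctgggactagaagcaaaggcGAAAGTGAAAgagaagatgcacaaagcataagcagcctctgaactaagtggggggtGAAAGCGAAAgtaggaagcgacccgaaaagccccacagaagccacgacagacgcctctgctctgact
Psme2: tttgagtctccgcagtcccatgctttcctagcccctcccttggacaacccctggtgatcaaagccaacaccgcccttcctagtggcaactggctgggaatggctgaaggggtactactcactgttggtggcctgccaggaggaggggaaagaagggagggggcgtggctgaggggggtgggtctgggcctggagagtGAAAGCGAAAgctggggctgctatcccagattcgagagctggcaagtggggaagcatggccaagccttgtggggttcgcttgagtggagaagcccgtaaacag
Psmb10 has 2 matches, Psmb8 and Psme2 have 1 each, and these letters are not in the Psmb9 window, which shares 44 bases with the promoter window of its divergent neighbour Tap1. That motif was found in 6 of the 36 subunit promoters that the RefSeq table holds (16.7%: Psma4, Psmb3, Psmb8, Psmb10, Psmd7 and Psme2) and in 3.92% of all 33469 promoters. The core of the antioxidant response element, TGACNNNGC, which Nrf-family factors bind at proteasome genes, was in 7 of 36 (19.4%: Psma3, Psmb2, Psmb5, Psmb6, Psmd1, Psmd3 and Psmd9) and in 12.1% of all promoters. None of the 6 printed windows holds the second motif, so the motifs do not overlap in them. Genes with and without either motif were among both the called and the uncalled subunits.

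**Figure D4:**
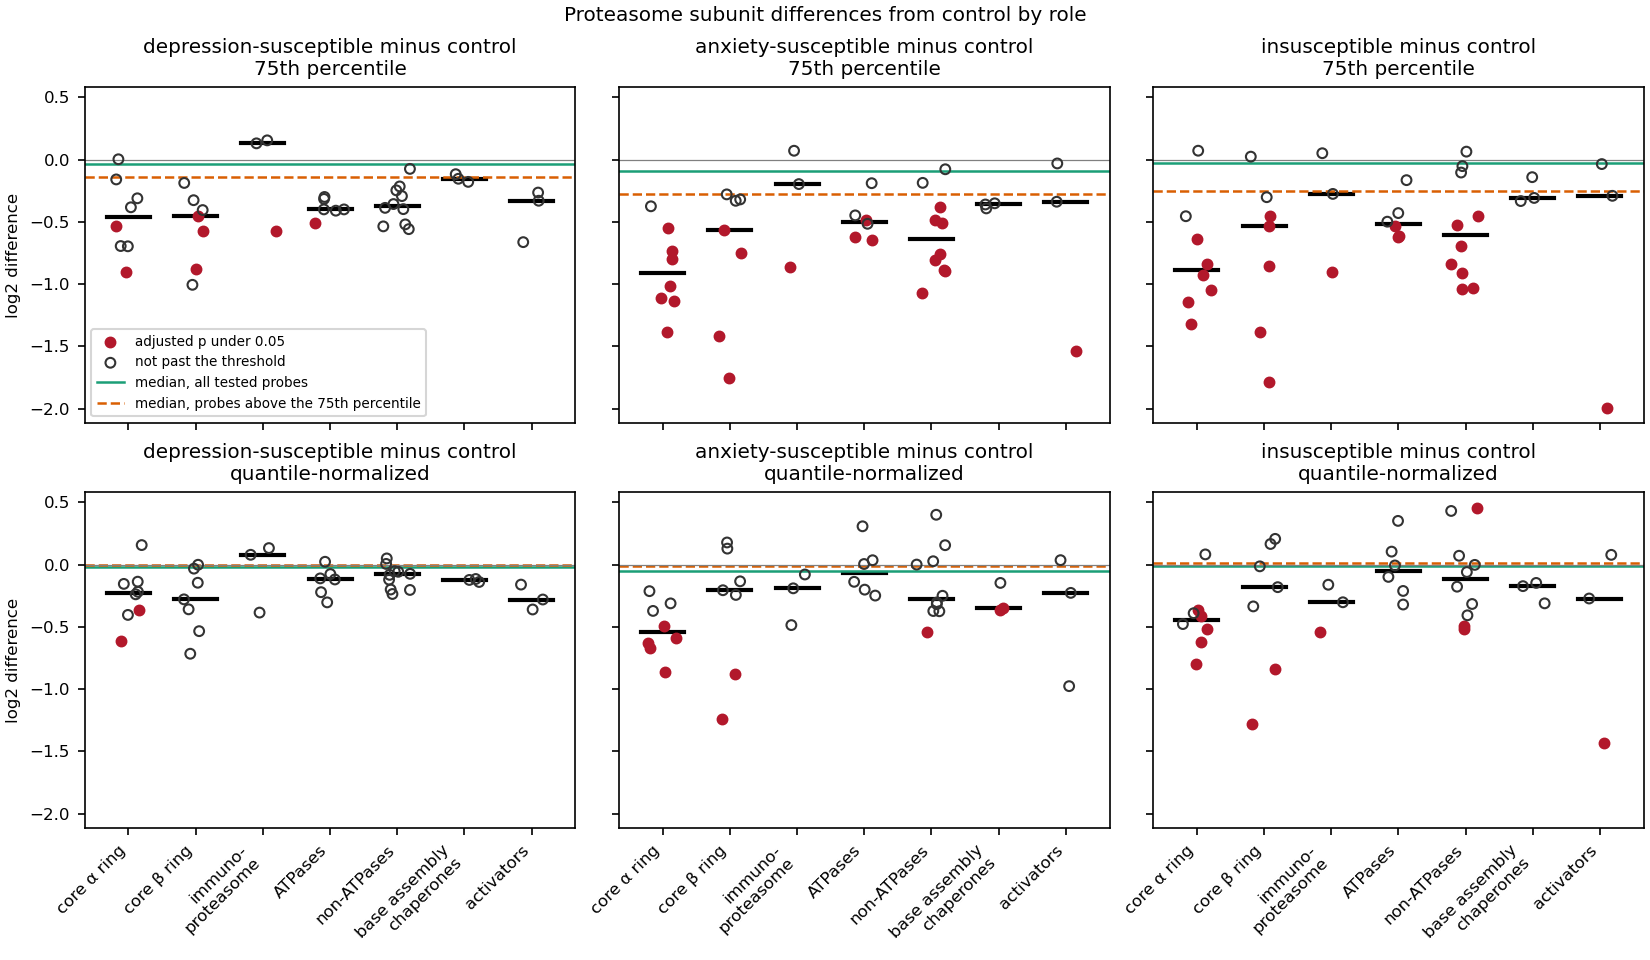
Points are subunits, placed by role along the horizontal axis, with the log2 difference from control on the vertical axis. Filled red points have an adjusted p under 0.05, open points do not, black bars are the median of the role, and lines are the medians of all tested probes (green) and of probes above the 75th percentile (orange, dashed). Under 75th percentile scaling (upper row) role medians reach -0.91 in the alpha ring of anxiety-susceptible rats; after quantile normalization (lower row) they reach -0.54.

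The 6 ATPases of the regulatory particle, Psmc1 to Psmc6, form the ring that unfolds the substrate. Their median differences were -0.40, -0.50 and -0.51 in depression-susceptible, anxiety-susceptible and insusceptible rats, and 1, 3 and 3 of them fell. Psmc3 had levels of 2.80 and 2.78 in the depression-susceptible samples, 2.67 in the anxiety-susceptible sample and 2.68 in the insusceptible sample, against 3.24 and 3.35 in the control samples. The stressed samples were alike and below both controls. Psmc3 fell by 0.51 (SE 0.08, adjusted p = 0.0421), 0.62 (SE 0.10, adjusted p = 0.0242) and 0.62 (SE 0.10, adjusted p = 0.0251) in the 3 stressed groups. Psmc4 and Psmc6 fell by 0.64 and 0.48 in anxiety-susceptible rats and by 0.61 and 0.53 in insusceptible rats. Psmc5, an ATPase subunit that is phosphorylated in neurons during synaptic activity, had differences of -0.32, -0.19 and -0.16 and was not called. After quantile normalization 0 ATPases were called in any group, with 2, 1 and 2 at an unadjusted p under 0.05, and the medians were -0.11, -0.07 and -0.05, so the lower levels of the ATPases depend on the scaling.

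Among the 10 non-ATPase subunits, 0 fell in depression-susceptible rats, 8 in anxiety-susceptible rats and 7 in insusceptible rats, with median differences of -0.37, -0.64 and -0.61. In depression-susceptible rats 7 of the 10 had an unadjusted p under 0.05. Psmd14, the deubiquitinase that removes the ubiquitin chain, had levels of 3.78 and 3.73 in the depression-susceptible samples, 3.20 in the anxiety-susceptible sample and 3.25 in the insusceptible sample, against 4.40 and 4.15 in the control samples. The depression-susceptible samples again lay between control and the other stressed samples. It fell by 1.07 in anxiety-susceptible rats (SE 0.14, adjusted p = 0.0176) and by 1.03 in insusceptible rats (SE 0.14, adjusted p = 0.019), and both calls stood after quantile normalization (-0.54 and -0.49). Psmd1 and Psmd2, the scaffolds of the particle, fell by 0.88 and 0.90 in anxiety-susceptible rats and by 0.84 and 1.04 in insusceptible rats. The fall of Psmd2 in insusceptible rats stood under both scalings. Psmd3 and Psmd7, which belong to the lid, fell by 0.81 and 0.76 in anxiety-susceptible rats and by 0.91 and 0.69 in insusceptible rats. No call of Psmd1, Psmd3 or Psmd7 stood after quantile normalization, nor did that of Psmd2 in anxiety-susceptible rats. Psmd13, also of the lid, fell by 0.51 and 0.52, and the ubiquitin receptor Psmd4 fell by 0.48 and 0.45, while after quantile normalization their differences lay between -0.00 and 0.07.

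Psmd8 read 0.21 and 0.21 in the depression-susceptible samples, -0.09 in the anxiety-susceptible sample and 0.18 in the insusceptible sample, against 0.31 and 0.26 in the control samples. Within the anxiety-susceptible group replicate 4 read -0.88 and the other arrays 0.15 to 0.20. The fall of Psmd8 by 0.38 in anxiety-susceptible rats (SE 0.09, adjusted p = 0.0484) was -0.12 without that array (adjusted p = 0.372). Psmd6 read 4.44 and 4.13 in the depression-susceptible samples, 4.59 in the anxiety-susceptible sample and 4.62 in the insusceptible sample, against 4.76 and 4.59 in the control samples. One depression-susceptible array (replicate 1) at 3.69 set the lowest value, beside 4.57 for the other array of its slide. The Psmd6 differences of -0.39, -0.08 and -0.05 were not called; after quantile normalization they were -0.07, 0.40 and 0.46, and the last was called higher (adjusted p = 0.0455). Psmd12 read 2.49 and 2.54 in the depression-susceptible samples, 2.55 in the anxiety-susceptible sample and 2.80 in the insusceptible sample, against 2.66 and 2.80 in the control samples. Its differences of -0.22, -0.19 and 0.06 were not called, and after quantile normalization that in insusceptible rats was 0.43 (adjusted p = 0.072).

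Under 75th percentile scaling, the chaperones that help to assemble the regulatory particle had smaller median differences from control than the 40 subunits together. Psmd5, Psmd9 and Psmd10 had differences of -0.18, -0.15 and -0.12 in depression-susceptible rats, -0.35, -0.39 and -0.36 in anxiety-susceptible rats and -0.33, -0.31 and -0.14 in insusceptible rats. None was called under 75th percentile scaling, with 0, 3 and 2 of 3 at an unadjusted p under 0.05. After quantile normalization Psmd9 and Psmd10 were called lower in anxiety-susceptible rats, at -0.35 (adjusted p = 0.0423) and -0.37 (adjusted p = 0.0381). Both were lower than the median of the 40 subunits on that scale. The smaller differences of the chaperones in anxiety-susceptible rats thus depend on the scaling. Under 75th percentile scaling Psmc3ip, the gene set apart, had differences of -0.17, -0.13 and -0.03 and was not called.

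The activators differed among themselves. Psme3, which forms the nuclear activator that works without ubiquitin, had levels of 5.09 and 4.38 in the depression-susceptible samples, 3.86 in the anxiety-susceptible sample and 3.41 in the insusceptible sample, against 5.63 and 5.17 in the control samples. The slides of 1 group were far apart for this probe, by 0.70 in depression-susceptible and 0.46 in control rats, but on each slide the depression-susceptible sample was the lower. Psme3 fell by 1.54 in anxiety-susceptible rats (SE 0.38, adjusted p = 0.0489) and by 1.99 in insusceptible rats (SE 0.38, adjusted p = 0.0313), and its difference in depression-susceptible rats was -0.66 (SE 0.31, adjusted p = 0.242). After quantile normalization the fall in insusceptible rats stood (-1.43, adjusted p = 0.0284) and that in anxiety-susceptible rats did not (-0.98, adjusted p = 0.0569). The interferon-inducible pair Psme1 and Psme2 form the activator that joins the immunoproteasome. Psme1 read 2.48 and 2.67 in the depression-susceptible samples, 2.56 in the anxiety-susceptible sample and 2.61 in the insusceptible sample, against 2.88 and 2.92 in the control samples. Psme2 read -3.02 and -3.10 in the depression-susceptible samples, -2.82 in the anxiety-susceptible sample and -2.83 in the insusceptible sample, against -2.78 and -2.81 in the control samples. On this scale Psme1 was lower in all stressed samples than in both controls, and so was Psme2, by little in the anxiety-susceptible and insusceptible samples. Neither was called in any group, with differences of -0.33, -0.34 and -0.29 for Psme1 and -0.26, -0.03 and -0.04 for Psme2. After quantile normalization the differences were -0.16, 0.04 and 0.08 for Psme1 and -0.36, -0.23 and -0.27 for Psme2, and again none was called.

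Between the stressed groups, 0 subunits were called in any of the 3 comparisons. Of all probes, 0.00565% were lower and 0.0677% higher in depression-susceptible against insusceptible rats, 0.0113% and 0.079% in anxiety-susceptible against insusceptible rats, and 0.119% and 0.152% in depression-susceptible against anxiety-susceptible rats. At an unadjusted p under 0.05 there were 13 subunits for depression-susceptible against insusceptible, 1 for anxiety-susceptible against insusceptible and 13 for depression-susceptible against anxiety-susceptible. The median differences were 0.18, -0.03 and 0.24, beside 0.02, -0.05 and 0.08 over all probes. Subunit levels were closest between the 2 groups scanned on day 2. In depression-susceptible against insusceptible rats the highest differences were 1.33 for Psme3 (adjusted p = 0.119) and 0.78 for Psmb3 (adjusted p = 0.151), and the lowest were -0.34 for Psmd6 and -0.28 for Psmd12. In depression-susceptible against anxiety-susceptible rats the highest were 0.88 for Psme3 and 0.74 for Psmb3, and the lowest were -0.31 for Psmd6 and -0.25 for Psmb1. In anxiety-susceptible against insusceptible rats they were 0.46 for Psme3 and 0.14 for Psmd2, with -0.30 for Psmb2 at the low end beside Psma8, which was not well above background in either group. Psmb2 read 1.08 and 0.99 in the depression-susceptible samples, 0.94 in the anxiety-susceptible sample and 1.24 in the insusceptible sample, against 1.25 and 1.19 in the control samples. After quantile normalization 0, 0 and 2 subunits were called, where 1.26% and 0.141% of probes were lower and 3.96% and 0.288% higher in the first 2 comparisons. The 2 subunits were Psma2 at 0.50 and Psmb1 at -0.49 in depression-susceptible against anxiety-susceptible rats, where 7.34% of probes were higher and 3.16% lower. With slide as a block, 14 subunits were higher and 1 lower in depression-susceptible against insusceptible rats (21.5% and 18.1% of probes), 17 were higher and 0 lower against anxiety-susceptible rats (25.2% and 15.6%), and 0 were called between the other two groups (2.35% higher and 1.54% lower). With the 16 arrays taken as independent, the subunits higher in these 3 comparisons were 22, 2 and 24 (33.6%, 12.1% and 39.0% of probes). Those lower were 4, 5 and 3 (28.4%, 24.4% and 23.9%). The slide block was a term for slide 2 alone, and the fit of 16 arrays ignores the slides. Neither adjusts for slides 3 and 4.

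Other genes of the ubiquitin pathway, from lists grouped by function, were lower in part. Over the array, 2.92%, 18.6% and 15.3% of probes fell in depression-susceptible, anxiety-susceptible and insusceptible rats. Among probes above 0 these shares were 2.64%, 26.7% and 23.8%. After quantile normalization 3.66%, 18.2% and 15.9% of all probes fell and 6.67%, 12.7% and 13.1% rose. Some list counts lie near these shares, and the lists were not tested as sets. Of 11 ubiquitin activating and conjugating enzymes tested, 0, 5 and 3 fell in depression-susceptible, anxiety-susceptible and insusceptible rats, with medians of -0.09, -0.44 and -0.18. Cdc34, a conjugating enzyme that extends ubiquitin chains, had levels of 3.16 and 3.18 in the depression-susceptible samples, 2.68 in the anxiety-susceptible sample and 2.55 in the insusceptible sample, against 3.59 and 3.55 in the control samples. It fell by 0.89 and 1.02 in anxiety-susceptible and insusceptible rats (adjusted p = 0.0126 and 0.0108), and in depression-susceptible rats the largest difference of this list was -0.45 for the activating enzyme Uba1 (adjusted p = 0.112). Of 12 ubiquitin ligases tested, 0, 5 and 4 fell, with medians of -0.13, -0.47 and -0.37. Among them Stub1, which marks chaperone-bound proteins, fell by 0.89 and 0.85 in anxiety-susceptible and insusceptible rats, and the largest difference in depression-susceptible rats was -0.61 for the ligase scaffold Cul1 (adjusted p = 0.129). The calls of Cdc34 in anxiety-susceptible rats (adjusted p = 0.0509) and of Stub1 in insusceptible rats (adjusted p = 0.0602) were lost after quantile normalization. No gene of these 2 lists rose under 75th percentile scaling. After quantile normalization 1 conjugating enzyme fell and 2 rose in anxiety-susceptible rats and 2 fell and 2 rose in insusceptible rats, and of the ligases 3 fell and 1 rose and 3 fell and 2 rose in these groups.

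Of 9 ubiquitin receptors, shuttles and unfoldase genes, 1, 5 and 4 fell in depression-susceptible, anxiety-susceptible and insusceptible rats, with medians of -0.19, -0.50 and -0.39. Vcp, the unfoldase that extracts ubiquitinated proteins, had levels of 4.22 and 4.19 in the depression-susceptible samples, 3.62 in the anxiety-susceptible sample and 3.57 in the insusceptible sample, against 4.72 and 4.66 in the control samples. Its samples showed the order of many subunits, with depression-susceptible between control and the other stressed groups. Vcp fell by 0.48, 1.07 and 1.12 (adjusted p = 0.0398, 0.0101 and 0.00996), and after quantile normalization the differences were -0.16, -0.57 and -0.60 and the last alone was called (adjusted p = 0.0476). On that scale 0, 0 and 1 genes of the list fell. Of 4 deubiquitinases tested, 0, 1 and 2 fell, with medians of -0.32, -0.36 and -0.62; Usp14, which docks on the regulatory particle, fell by 0.99 and 0.93 in anxiety-susceptible and insusceptible rats and its calls stood after quantile normalization. Of 5 assembly factors and inhibitors, 0, 3 and 3 fell, with medians of -0.26, -0.50 and -0.40. This list includes Sem1, a small lid subunit whose name lies outside the rule for the 40 genes. Sem1 fell by 1.03 in anxiety-susceptible rats (adjusted p = 0.0396) and by 0.97 in insusceptible rats (adjusted p = 0.045), with -0.55 in depression-susceptible rats (adjusted p = 0.146). After quantile normalization neither call of Sem1 stood (adjusted p = 0.0626 and 0.0828), and 0, 1 and 1 genes of the list fell. Of 4 regulators of proteasome genes or function, 0, 1 and 1 fell, with medians of -0.09, -0.19 and -0.11. The one that fell was Txnl1, a thioredoxin-like protein bound to the regulatory particle, at -1.10 and -1.13. Nfe2l1, the transcription factor that raises proteasome genes when degradation is impaired, had differences of 0.28, 0.32 and 0.32 and was not called (adjusted p from 0.166 to 0.209).

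**Figure D5:**
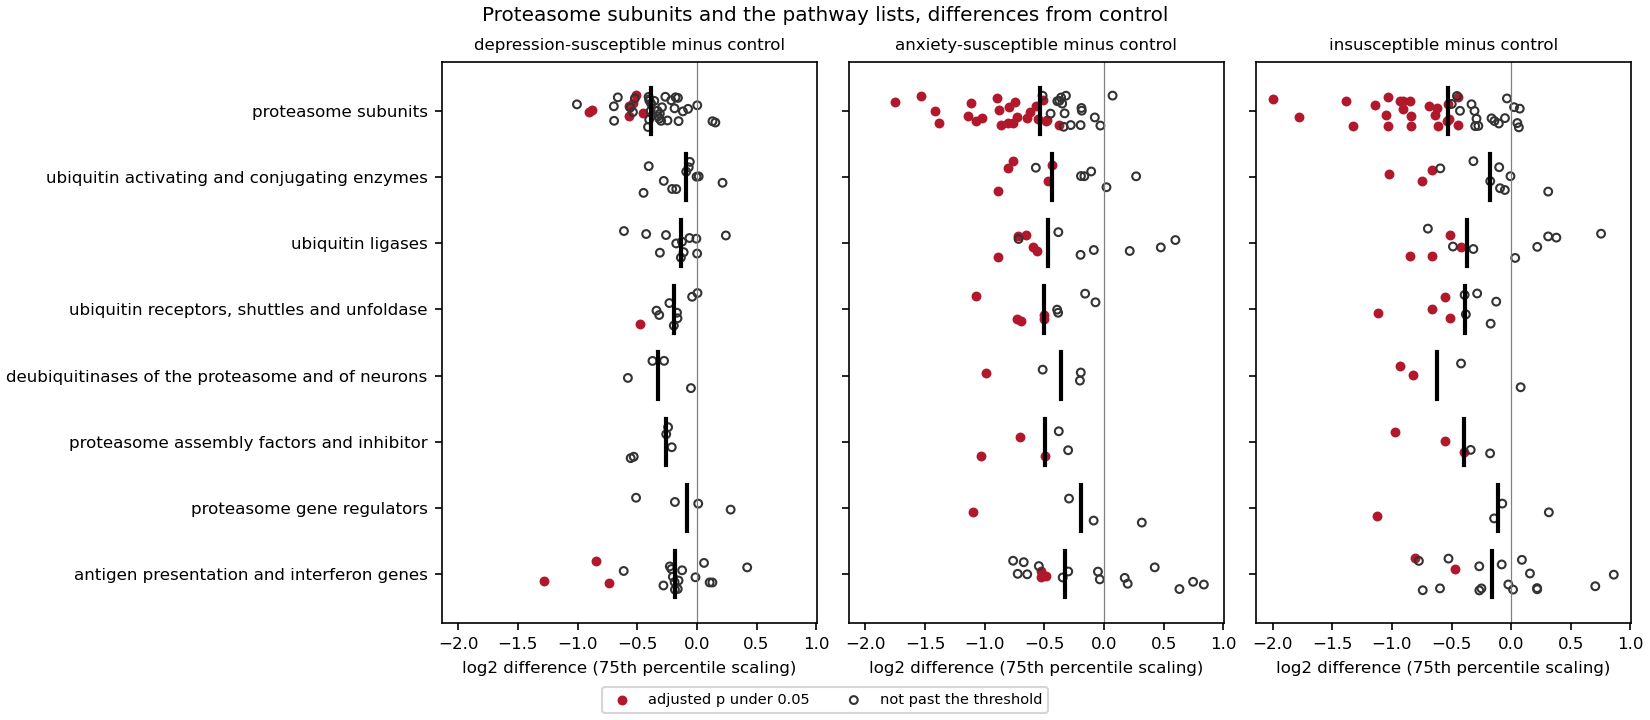
Points are genes, with the log2 difference from control under 75th percentile scaling on the horizontal axis and the 40 proteasome subunits above 7 lists of pathway genes on the vertical axis. Filled red points have an adjusted p under 0.05, open points do not, and black bars are medians. The subunits have medians of -0.39, -0.53 and -0.53 in the 3 panels, and most lists have red points to the left of 0 in the anxiety-susceptible and insusceptible panels.

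Antigen presentation and interferon genes, the known setting of the immunoproteasome, did not move as 1 block under 75th percentile scaling, the only scale given here for them. Of 18 tested, 3, 3 and 2 fell and 0 rose in depression-susceptible, anxiety-susceptible and insusceptible rats, with medians of -0.19, -0.32 and -0.16. Over the array, 2.92%, 18.6% and 15.3% of probes fell in these groups. Bst2, an interferon-induced membrane protein that tethers virus particles, read -6.14 and -5.92 in the depression-susceptible samples, -5.51 in the anxiety-susceptible sample and -5.49 in the insusceptible sample, against -4.94 and -4.55 in the control samples. The probe was well above background on 3 of the 4 anxiety-susceptible and 2 of the 4 insusceptible arrays. Bst2 fell by 1.28 in depression-susceptible rats (SE 0.18, adjusted p = 0.0288), where the interferon-induced genes Isg15 and Irf7 fell by 0.84 and 0.73. Tap1, the peptide transporter gene next to Psmb9, had differences of -0.01, -0.48 and -0.81, and the last 2 were called (adjusted p = 0.0401 and 0.0177). Tapbpl, a peptide editor of antigen presentation, had differences of 0.84 and 0.86 in anxiety-susceptible and insusceptible rats that were not called (adjusted p = 0.144 and 0.137), and its probe was well above background on 2 of the 4 insusceptible and 2 of the 4 control arrays.

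Markers of other cells moved with the groups, and their part in the subunit results was not tested. Over the array, 2.92%, 18.6% and 15.3% of probes fell in depression-susceptible, anxiety-susceptible and insusceptible rats. In the same order, 6.84%, 12.5% and 15.1% rose. All 11 choroid plexus markers tested fell in depression-susceptible and in insusceptible rats and 10 fell in anxiety-susceptible rats. Their summed level was 5.10 and 4.87 in the depression-susceptible samples, 6.99 in the anxiety-susceptible sample and 3.60 in the insusceptible sample, against 7.0 and 6.80 in the control samples. Their median differences were -4.19, -2.06 and -4.29 in depression-susceptible, anxiety-susceptible and insusceptible rats. Ttr, the 1 marker not called lower in anxiety-susceptible rats, read 6.92 there, against 6.57 and 6.31 in the control samples. Of 7 red blood cell markers tested, 5, 0 and 4 rose and 1, 2 and 1 fell, with summed levels of 4.72 and 4.66, -0.04, and 1.36 against 0.51 and 0.50. The 9 neuron markers had medians of -0.13, -0.62 and -0.50, with 1, 4 and 3 falling and 0, 0 and 1 rising, and summed levels of 7.24 and 6.96, 6.77, and 6.78 against 7.70 and 7.39. For 7 hippocampal neuron markers the medians were -0.18, -0.35 and -0.41, with 1, 1 and 2 falling, and summed levels of 6.04 and 5.97, 5.63, and 5.63 against 6.33 and 6.15. Of 9 microglia markers 3, 5 and 4 fell, with summed levels of 5.13 and 5.11, 4.95, and 5.05 against 5.51 and 5.46. Of 6 astrocyte markers none was called (1, 0 and 0 at an unadjusted p under 0.05), with summed levels of 7.84 and 7.54, 7.92, and 7.77 against 8.23 and 7.88. Of 7 oligodendrocyte markers 0, 0 and 1 fell, with sums of 8.03 and 7.66, 7.96, and 7.77 against 8.40 and 8.10. Of 5 endothelial markers 0, 0 and 1 rose, with sums of 3.05 and 3.12, 2.65, and 2.95 against 3.03 and 3.02. Each set of sums gives depression-susceptible, anxiety-susceptible and insusceptible samples before the 2 control samples. Zbtb20, Slc4a1 and Cdh5 were on these lists but did not pass the filter on dim probes.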

How the data were processed

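Per the file headers, the authors' spot files hold background-subtracted intensity values written by Feature Extraction 11.0.1.1. A deposited value table of log2 values, whose columns were found to share their quantiles, served as an alternative; the sources used here do not name its software. Cy3-labelled cRNA was made by random priming after removal of ribosomal RNA, per the labels' protocols. Symbols came from RefSeq names matched to a GRCr8 gene table used for names and promoters: 14274 of 15321 messenger RNA probes matched.

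Control and outlier spots were left out, spots of a probe were averaged, and each log2 processed signal was lowered by the 75th percentile of its array. Of 24684 probes, 17713 were tested, namely those with a value in every sample and a signal well above background on 4 or more of 16 arrays. Arrays of 1 group on 1 slide were averaged to 6 samples, and the 4 group means were fitted with limma 3.58.1 in R 4.3.3 (moderated two-sided tests, 2 residual degrees of freedom). P-values were adjusted by Benjamini-Hochberg over all probes, with a threshold of 0.05, for 6 comparisons. The brightest probe of a gene would have been used, but each subunit had 1. Tables and plots were made with numpy 2.4.6, pandas 2.3.3 and matplotlib 3.10.9 under Python 3.11.15, and the fit was tested on simulated data.

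Values in every sample are given for the catalytic pairs, the activators and the 3 highest and 3 lowest differences from control (2 and 2 between stressed groups), and for each pathway list the gene of the largest absolute difference is named, except 1 list that is not reported here; Psma2, Psma5, Psma7, Psmc3, Psmd14 and the other genes named were added after their values were seen. The members and lists were chosen with earlier results of these data known. Alternatives were quantile normalization, slide and replicate blocks, single arrays, other filters and left-out arrays or samples; slide as a random block on 16 arrays and normexp (offset 50, run on the median spot signal because the files hold no mean signal) were chosen after seeing the data. The number of arrays limits the precision.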

Additional observations from a re-analysis of the deposited data

How the results depend on the processing

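Values follow the order depression-susceptible, anxiety-susceptible and insusceptible against control, then depression-susceptible against insusceptible, anxiety-susceptible against insusceptible, and depression-susceptible against anxiety-susceptible. Over these 6 comparisons the main counts of called subunits were 7, 24, 23, 0, 0 and 0; the cause of each change below was not tested. With 16 arrays taken singly the first count was 36 and the last 3 were 26, 7 and 27. With slide as a random block, chosen after seeing the data, they were 36, and 21, 2 and 23, and with slide as a block 30, and 15, 0 and 17, with an anxiety-susceptible median of -0.57. Replicate numbers did not pair the samples (correlations of deviations from -0.555 to 0.135), and the fit with the replicate number as a block on 16 arrays gave 36, and 26, 6 and 27. Quantile normalization gave counts of 2, 10 and 12 against control and 2 for the last comparison, with medians of -0.14, -0.25 and -0.24 against control, 0.087 for the fourth and 0.136 for the last. The deposited value table gave 2, 9 and 12, and 1 for the last, with medians of -0.15, -0.24, -0.22, 0.087 for the fourth and 0.11 for the last. Normexp, chosen after seeing the data for its signal column, gave counts of 0, 0 and 0 against control, where no probe was called (smallest adjusted p = 0.105, 0.919 and 0.493), and medians of -0.26, -0.43, 0.285 for the fourth and 0.0692 for the fifth. Without a filter the first 2 counts were 1 and 10, and with probes well above background on all arrays the last was 1.

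Leaving out arrays or whole samples gave counts of 0 to 7, 5 to 25 and 6 to 24 against control and 0 to 0 between stressed groups, and medians of -0.42 to -0.31, -0.56 to -0.50, -0.55 to -0.50, 0.15 to 0.21, -0.03 to -0.02 and 0.23 to 0.28.

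Quantile normalization turned the sign of 5, 11 and 9 of the 40 differences from control, among them called ones of Psmd4 and Psmd13 in anxiety-susceptible rats and of Psmd4 in insusceptible rats. Of the members given in every sample, these uncalled differences changed sign. In depression-susceptible rats Psmb9 was -0.16 under normexp, Psma8 was -0.15 under quantile normalization, -0.91 under normexp and -0.16 in the value table, and Psmb5 was 0.0022 in the value table. In anxiety-susceptible rats, quantile normalization and the value table gave -0.0783 and -0.0302 for Psmb9, 0.40 and 0.40 for Psmd6, 0.18 and 0.17 for Psmb5, and 0.0367 and 0.0419 for Psme1, and normexp gave -0.18 for Psmb9 and 0.0124 for Psmd6. In insusceptible rats they gave -0.39 and -0.37 for Psma8, -0.16 and -0.11 for Psmb9, 0.21 and 0.20 for Psmb5, and 0.0794 and 0.0842 for Psme1, and normexp gave 0.15 for Psme2. With arrays or samples left out, the depression-susceptible differences ranged from -0.12 to 0.12 for Psma8, -0.0317 to 0.29 for Psmb8 and -0.0226 to 0.33 for Psmb9. Those in anxiety-susceptible rats ranged from -0.11 to 0.25 for Psmb9, -0.0622 to 0.0010 for Psme2 and -0.16 to 0.0079 for Psmd6, and those in insusceptible rats from -0.13 to 0.23 for Psmb9, -0.0476 to 0.19 for Psma8 and -0.0054 to 0.13 for Psmd12. Psma8 and Psme2 are dim, and signal over background limits their precision.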
